A study of Mus musculus with 9 samples.

Results

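The late phase of 3T3-L1 adipocyte differentiation was described by comparing 3 samples of 8-day-differentiated adipocytes (day 8) with 3 samples of 4-day-differentiated adipocytes (day 4), which are 6 of the 9 RNA-seq samples of the series. The 3T3-L1 line is an established mouse embryonic fibroblast line whose cells can turn into fat cells in culture. At day 0, the confluent preadipocytes received induction medium, a high-glucose medium with serum plus dexamethasone, IBMX and insulin. After 2 days, this was replaced by maintenance medium that kept only insulin. Day 4 cells had therefore spent 2 days without dexamethasone and IBMX, and day 8 cells a further 4 days in renewed maintenance medium. Both groups were of the same line, received the same hormones and had insulin throughout. No group kept in induction medium or without insulin was included. The 3 day 0 samples, taken before induction, entered the statistical model for the estimate of the spread, and their values are given side by side only, since comparisons of day 4 with day 0 and of day 8 with day 4 share the day 4 samples. According to the methods of the study the RNA of each stage was pooled, and the labels do not say whether the replicates came from separate cultures, so that the p-values measure the spread between these samples, which may be technical. The total expected count was between 19681622 and 20402862 per sample at day 4 and between 19898142 and 20205942 at day 8. At this depth, 3 counts correspond to at most 0.152 CPM, counts scaled to library size.

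Adipocyte differentiation runs in waves. Dexamethasone, a synthetic glucocorticoid, and IBMX, which blocks the breakdown of cyclic AMP, switch on early transcription factors, and these activate PPARγ and C/EBPα, which turn on the genes of the fat cell. In the later phase the cells fill with triglyceride, acquire the receptors and secreted hormones of fat tissue, and surround themselves with a new extracellular matrix.

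The samples carried the RNA of fat cells on both days. All 16 adipocyte markers were detected and tested. Their summed level was 6196, 7557 and 8819 FPKM (fragments per kilobase of transcript, scaled to sequencing depth) in the day 4 samples, and 8913, 9576 and 9562 FPKM in the day 8 samples. Day 4 replicate 1 had the lowest sum and day 4 replicate 3 came close to the day 8 samples. Of these markers 5 were called higher (Slc2a4, Cfd, Adrb3, Lep and Car3, described below) and none lower. Retn (resistin) and the enzymes Acsl1 and Dgat2 of the same list had log2 fold changes of 0.38 ± 0.10, 0.06 ± 0.07 and -0.17 ± 0.07. Among the other cell types considered, the 10 matched of 12 macrophage markers had sums of 5.51 ± 0.405 FPKM (day 4) and 5.61 ± 0.37 FPKM (day 8, SD, n = 3), and the 10 matched of 12 endothelial markers of 0.873 ± 0.0757 and 1.11 ± 0.135 FPKM. The most abundant of these were Cd14 and Flt1. Of the tested ones, 1 of 5 macrophage and 1 of 3 endothelial markers were called higher and none lower. The highest log2 fold changes of these lists were 1.25 and 1.01. Of the matched markers, 2 endothelial ones were at 0 in all 6 samples, among them Robo4. The macrophage marker Itgam was at 0, 0.01 and 0 FPKM at day 4 and 0, 0 and 0 FPKM at day 8, and the muscle markers Ckm and Myog were at 0 in all 6 samples. The 12 smooth muscle or pericyte markers summed to 77.0 ± 11.6 FPKM and 116 ± 6.23 FPKM, mostly Acta2 (57.4, 49.9 and 35.2 FPKM at day 4 and 87.6, 77.7 and 72.9 FPKM at day 8), the skeletal muscle list to 6.31 and 11.0 FPKM, mostly Des (4.18, 4.71 and 4.64 FPKM at day 4 and 8.2, 7.8 and 8.7 FPKM at day 8), and the glia list to 200.8 FPKM on each day, mostly Pmp22 (161, 158 and 158 FPKM at day 4 and 165, 165 and 159 FPKM at day 8). Smooth muscle or pericyte markers gave 1 call in each direction among 8 tested, skeletal muscle markers 1 upward among 3, and glia markers none among 6. The extraction text in the labels mentions DRG tissue, while the titles name 3T3-L1 cells. Of the 15 sensory neuron markers 3 were tested, and 1 was called higher and none lower. The neuronal sodium channels Scn10a and Scn11a did not exceed 0.01 FPKM. The sum of this list, 7.03 ± 0.326 FPKM (day 4) and 20.3 ± 0.53 FPKM (day 8), was mostly the ATP-gated channel P2rx3, which also stood at 26.7, 20 and 22.5 FPKM in the day 0 samples.

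The late phase changed the level of many genes by small amounts and of fewer genes by more than 2-fold. Of 13154 genes tested with edgeR, 558 (4.24%) were called higher and 370 (2.81%) lower at day 8, where a call required a Benjamini-Hochberg adjusted p under 0.05 and more than a 2-fold difference. Log2 fold changes are day 8 over day 4. The standard error given with them was back-calculated from the fold change and the F statistic of the edgeR test. Without the fold requirement, 2964 genes (22.5%) were higher and 2989 (22.7%) lower. More than 4-fold differences were found for 134 genes in the upward and 92 genes in the downward direction. All 3 day 8 samples lay above all 3 day 4 samples in 551 of the genes called higher, and below them in 358 of the genes called lower. The same separation was seen in 3584 and 3590 of all tested genes. In these bulk samples, fewer cells of a type and less RNA per cell cannot be told apart.

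The 45 functional gene lists differed widely in this comparison. The hypoxia response list had the highest median log2 fold change, 1.04, and the list of glucocorticoid-responsive genes the lowest, -0.99, while the median over all tested genes was -0.01. Small proteoglycans (median 0.90), glycolysis (0.82) and lipolysis with its hormonal control (0.63) followed at the upper end. No member was called in the lists of DNA replication and mitosis, cyclins and cell cycle inhibitors, cytosolic ribosomal proteins, lysosome, and MHC class I with antigen processing. The lists were chosen with earlier results of these data known, and some share members. For all tested genes, the shares to set beside the counts below were 4.24% called higher and 2.81% lower. At any fold they were 22.5% higher and 22.7% lower.

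**Figure D1:**
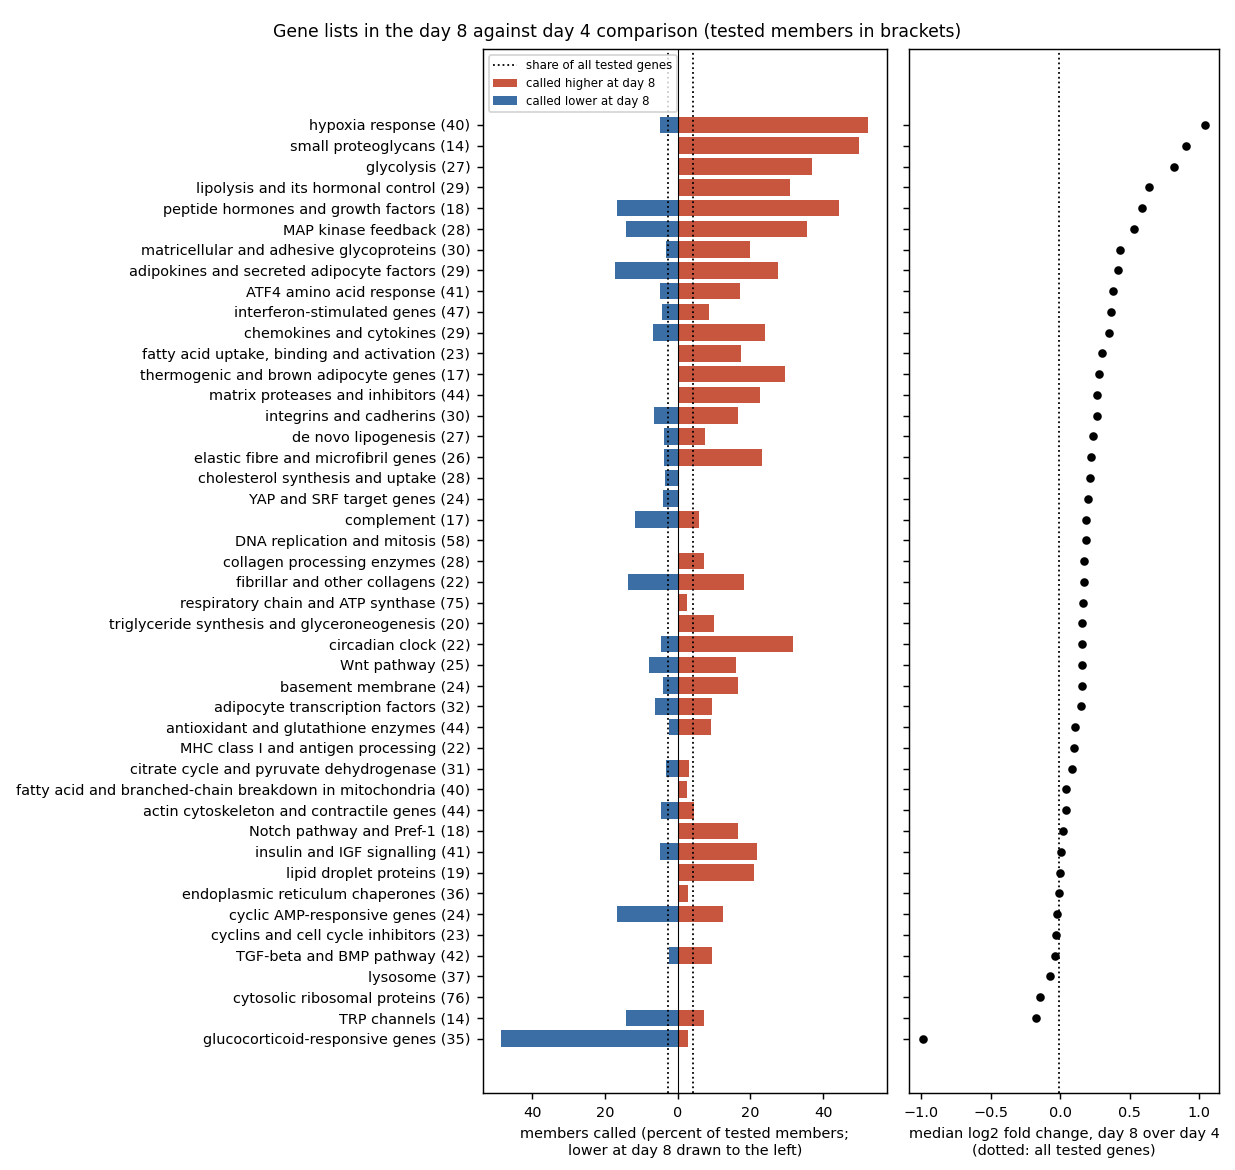
Percent of the tested members of each gene list that were called higher (red, to the right) or lower (blue, to the left) at day 8, with the median log2 fold change of day 8 over day 4 in the right panel. Dotted lines mark all tested genes (4.24% higher, 2.81% lower, median -0.01), and the hypoxia response stands furthest to the right and the glucocorticoid-responsive genes furthest to the left.

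Genes known to respond to glucocorticoids were mostly lower at day 8. Of 35 tested members of the list, 17 were called lower and 1 was called higher, against 2.81% and 4.24% of all genes. At any fold, 26 were lower and 6 higher. Fkbp5, a co-chaperone of the glucocorticoid receptor and a classical target of it, was at 199, 201 and 197 FPKM at day 4 and 14.4, 13.8 and 14.7 FPKM at day 8. The 3 samples of each day lay close together and far from those of the other day. Its log2 fold change was -3.76 ± 0.06 (edgeR adjusted p = 6.88e-16), and the day 8 range overlapped the day 0 values of 11.3, 14.1 and 12.7 FPKM.

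Fam107a, an actin-associated protein known to be induced by stress and glucocorticoids, was at 65.5, 64.5 and 67.7 FPKM at day 4 and 1.18, 1.47 and 1.69 FPKM at day 8. The groups were far apart, with a log2 fold change of -5.46 ± 0.08 (edgeR adjusted p = 1.20e-16), but its fall was known when the list was written. Sult1a1, a phenol sulfotransferase, was at 68, 73.2 and 80.6 FPKM at day 4 and 8.53, 9.51 and 8.81 FPKM at day 8, and its log2 fold change was -3.00 ± 0.07 (edgeR adjusted p = 5.63e-14). Tsc22d3, the glucocorticoid-induced leucine zipper protein, was at 286, 286 and 262 FPKM at day 4 and 54.1, 52.4 and 50.5 FPKM at day 8 and fell by 2.35 on the log2 scale (± 0.05, edgeR adjusted p = 1.88e-14). Zbtb16, a zinc finger transcription factor, was at 19, 17.3 and 17.7 FPKM at day 4 and 3.58, 3.37 and 3.55 FPKM at day 8, and its log2 fold change was -2.32 ± 0.09 (edgeR adjusted p = 5.47e-12). For both genes the day 8 samples lay below all day 4 samples and above all day 0 samples. The other called genes of the list included the bile acid and steroid sulphate transporter Slc10a6, which fell with a log2 fold change of -2.41 ± 0.20, and the NF-κB inhibitor Nfkbia, which was just past the 2-fold limit and short of it with DESeq2, with RLE factors, without the filter (-0.999) and without day 4 replicate 2 or 3 or day 8 replicate 1 or 3 (-0.997 to -0.962).

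The most abundant gene of the list was the metallothionein Mt1, which binds zinc and copper. It was at 1287, 1463 and 1371 FPKM at day 4 and 371, 351 and 389.6 FPKM at day 8, against 330.1, 353 and 377 FPKM at day 0, and the day 8 and day 0 ranges overlapped. Its log2 fold change from day 4 to day 8 was -1.85 ± 0.06 (edgeR adjusted p = 2.19e-12). Its neighbour Mt2 fell as well, with a log2 fold change of -1.67 ± 0.12 (edgeR adjusted p = 1.68e-08), although 73.5% of its exon bases lie under an antisense gene and the strand of the libraries is not given in the sources used here. Glul, glutamine synthetase, stood at 262, 292 and 299 FPKM at day 4 and 77.7, 83.7 and 83.2 FPKM at day 8. All day 8 samples lay below all day 4 samples (log2 fold change -1.76 ± 0.06, edgeR adjusted p = 2.29e-12). The summed level of the whole list was 4195 ± 120 FPKM (day 4) and 1982 ± 57.2 FPKM (day 8, SD, n = 3).

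The gene of this list that was called higher was Hsd11b1, the enzyme that regenerates active glucocorticoid inside the cell. It was at 34.8, 43.1 and 51.8 FPKM at day 4 and 123, 139.7 and 153 FPKM at day 8, with every day 8 sample above every day 4 sample and a log2 fold change of 1.73 ± 0.11 (edgeR adjusted p = 2.39e-09). The glucocorticoid receptor gene Nr3c1 was at 16.7, 15.2 and 17.3 FPKM at day 4 and 28.8, 29.6 and 27.6 FPKM at day 8. It was higher at day 8 by less than 2-fold, with a log2 fold change of 0.85 ± 0.05 (edgeR adjusted p = 1.75e-09), and the day 0 values were 25.4, 26.6 and 27.2 FPKM.

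Promoter sequences of 2 members are shown because they hold, close to the start site, the letters ACANNNTGT, a loose form of the glucocorticoid element. The sequences are the 250 bases before the RefSeq start site (GRCm38.p6), and capitals mark the match. For Fam107a (chr14:8309778-8310027, minus strand) the match begins 118 bases before the start, and for Mt1 (chr8:94178839-94179088, plus strand) 92 bases before it.
Fam107a: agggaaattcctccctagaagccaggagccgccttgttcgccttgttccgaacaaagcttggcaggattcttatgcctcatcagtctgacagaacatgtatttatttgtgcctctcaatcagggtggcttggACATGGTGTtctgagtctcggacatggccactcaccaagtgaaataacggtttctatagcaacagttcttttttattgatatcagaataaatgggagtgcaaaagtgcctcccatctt
Mt1: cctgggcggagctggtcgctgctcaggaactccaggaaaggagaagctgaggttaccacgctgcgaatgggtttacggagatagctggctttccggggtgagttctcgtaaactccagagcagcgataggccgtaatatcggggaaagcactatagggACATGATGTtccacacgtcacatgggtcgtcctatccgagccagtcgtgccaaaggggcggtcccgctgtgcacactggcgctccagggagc
Searched on both strands of the 300-base RefSeq promoters (250 bases before and 50 after the start), these letters were found in 23.8% of the 21 promoters of the called lower members, in 4.22% of the promoters of all tested genes and in 6.85% of all promoters of the table. They were also in 23.1% of the 26 promoters of the hypoxia members called higher, in 7.74% of the promoters of all genes called lower and in 6.97% of those called higher, and not in the promoters of Fkbp5 and Tsc22d3. A match describes letters in the window and no binding.

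The genes that respond to cyclic AMP did not move in one direction. Of 24 tested members 3 (12.5%) were called higher and 4 (16.7%) lower, against 4.24% and 2.81% of all genes. The immediate early transcription factor Fosb was at 22.3, 10.9 and 43.6 FPKM at day 4 and 2.5, 1.95 and 2.93 FPKM at day 8. Its relative Fos was at 106, 67.3 and 185 FPKM at day 4 and 35.1, 29.8 and 38.4 FPKM at day 8. The day 4 samples of both differed widely among themselves, replicate 3 being the highest and replicate 2 the lowest, but all lay above the day 8 samples. The log2 fold change was -3.33 ± 0.42 (edgeR adjusted p = 8.18e-06) for Fosb and -1.75 ± 0.27 (edgeR adjusted p = 6.18e-05) for Fos. Atf3, a stress-induced factor of the same protein class, was at 1.23, 0.84 and 0.57 FPKM at day 4 and 3.89, 3.71 and 4.5 FPKM at day 8, and it rose by 2.24 ± 0.19 on the log2 scale (edgeR adjusted p = 1.02e-07). Stc1, the secreted factor stanniocalcin-1, and the phosphodiesterase Pde7b were the other genes called higher, with log2 fold changes of 1.67 ± 0.05 and 1.29 ± 0.39, and Pde7b was not called without day 8 replicate 3 (edgeR adjusted p = 0.0513). The most abundant member, Junb, had a log2 fold change of -0.25 ± 0.16 that turned to 0.05 without day 4 replicate 3.

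Feedback genes of the MAP kinase pathway were split between both directions. Of 28 tested members, 10 (35.7%) were called higher and 4 (14.3%) lower, against 4.24% and 2.81% of all genes. Among those that fell were Errfi1, an inhibitor of the EGF receptor, and Dusp1, a phosphatase that inactivates MAP kinases. Errfi1 was at 103, 106 and 109 FPKM at day 4 and 24.3, 24.9 and 23.7 FPKM at day 8, with a log2 fold change of -2.08 ± 0.05 (edgeR adjusted p = 7.57e-14). Dusp1 had a log2 fold change of -1.12 ± 0.09 (edgeR adjusted p = 7.11e-08), and was just short of 2-fold without day 4 replicate 3 (-0.996). Among the genes that rose was Fosl1, a partner of JUN in the AP-1 factor, at 5.8, 11.1 and 11.9 FPKM at day 4 and 43.3, 50.7 and 49.7 FPKM at day 8, with every day 8 sample above every day 4 sample (log2 fold change 2.36 ± 0.20, edgeR adjusted p = 1.04e-07). An antisense gene lies over 57.2% of the exon bases of Fosl1. Spry2, an inhibitor of growth factor signalling, was at 7.19, 8.14 and 8.07 FPKM at day 4 and 20.1, 19.9 and 21 FPKM at day 8 (log2 fold change 1.43 ± 0.07, edgeR adjusted p = 2.45e-10). The other 8 genes called higher, among them the early response gene Ier3 (1.35 ± 0.12) and the phosphatases Dusp8 (1.48 ± 0.21), Dusp9, Dusp4, Dusp10 and Dusp5, had log2 fold changes between 1.01 and 1.48, and Dusp5 was not past 2-fold without day 8 replicate 3 (0.99) or with library size alone (0.99). Dusp5 was also short of 2-fold with limma on log2(FPKM + 1) (0.83) and on log2(FPKM + 0.1) (0.97). Dusp14 fell (-1.16 ± 0.11).

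Genes of the circadian clock gave more calls upward than downward, and its activator Arntl was not called. The clock runs as a loop in which the proteins of Arntl (BMAL1) and Clock switch on the Per, Nr1d1 and Dbp genes, whose products act back on the loop or on other genes. Of 22 tested members of the list, 7 (31.8%) were called higher and 1 (4.55%) lower, against 4.24% and 2.81% of all genes. Dbp, a transcription factor driven directly by the clock, was at 7.76, 8.75 and 7.87 FPKM at day 4 and 34, 32.1 and 36.5 FPKM at day 8. The day 8 samples were all above the day 4 samples, and also above the 23.1, 21.9 and 24.6 FPKM of day 0. Its log2 fold change was 2.12 ± 0.08 (edgeR adjusted p = 3.71e-12). Nr1d1, the nuclear receptor REV-ERBα that represses Arntl, was at 12.6, 13.8 and 12.8 FPKM at day 4 and 33.8, 33.7 and 34.7 FPKM at day 8, a log2 fold change of 1.43 ± 0.05 (edgeR adjusted p = 4.71e-12). The other 5 called genes were Hlf (1.51 ± 0.14), Ciart (1.50 ± 0.15), Per3 (1.42 ± 0.09), Bhlhe40 (1.26 ± 0.09) and Nr1d2 (1.15 ± 0.07), given as log2 fold changes. The gene that fell was Per1, which glucocorticoids and cyclic AMP are also known to induce, at 28, 28.4 and 26.5 FPKM at day 4 and 11.6, 11.2 and 12.2 FPKM at day 8 and with a log2 fold change of -1.20 ± 0.05 (edgeR adjusted p = 2.89e-11). Arntl itself was at 9.5, 9.36 and 8.72 FPKM at day 4 and 8.92, 8.95 and 8.46 FPKM at day 8, and its groups overlapped (log2 fold change -0.03 ± 0.06, edgeR adjusted p = 0.695). The hour of collection is not given in the sources used here, so the phase of a cycle and the stage of differentiation cannot be told apart.

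**Figure D2:**
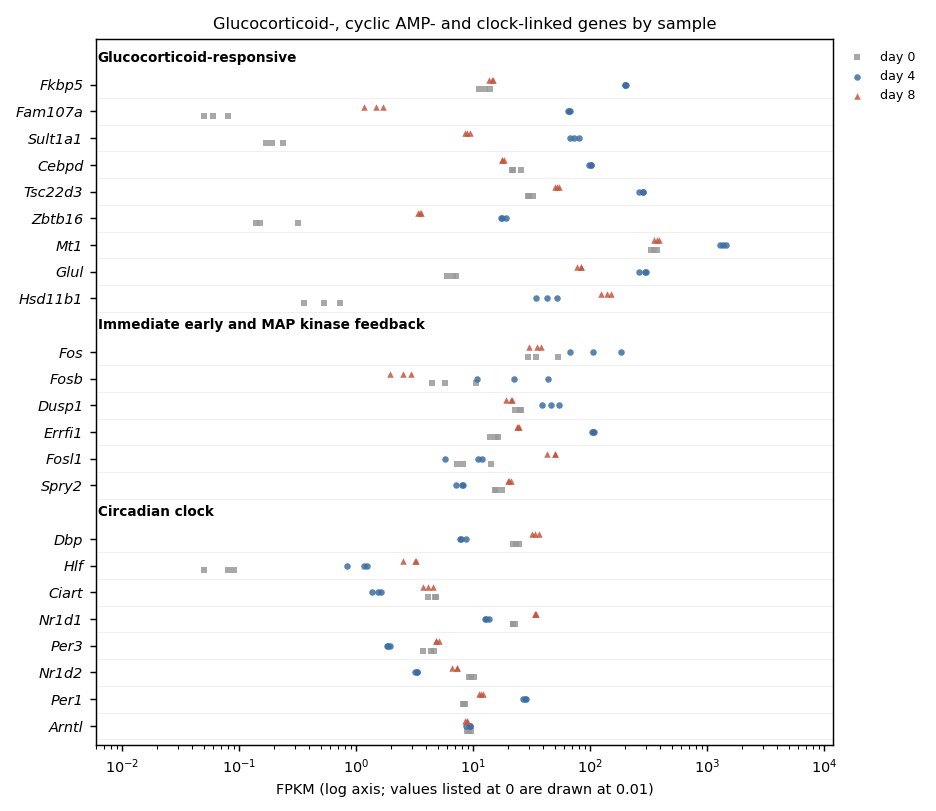
FPKM of each sample (log axis) for glucocorticoid-responsive, immediate early and clock genes, with day 0 as grey squares, day 4 as blue circles and day 8 as red triangles. For Fkbp5 and Cebpd the day 8 samples (14.4, 13.8 and 14.7 FPKM for Fkbp5) lie near the day 0 samples and far below the day 4 samples, and Arntl does not separate the days.

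Genes of the hypoxia response were the list with the largest share of members called higher. This response is known to be run by the HIF transcription factors, whose proteins are destroyed by oxygen-dependent prolyl hydroxylases. Of 40 tested members 21 (52.5%) were called higher and 2 lower, and at any fold 35 were higher and 3 lower, against 22.5% and 22.7% of all genes. Car9, a carbonic anhydrase of the cell surface and a classical HIF target, was at 0.53, 0.8 and 0.52 FPKM at day 4 and 8.96, 9.35 and 10.1 FPKM at day 8. All day 8 samples were above 8 FPKM and all day 4 samples below 1 FPKM, and the log2 fold change was 3.97 ± 0.15 (edgeR adjusted p = 4.73e-12). Ero1l, an oxidase that forms disulphide bonds in the endoplasmic reticulum, was at 40.6, 44.3 and 48.2 FPKM at day 4 and 178, 241 and 278 FPKM at day 8. It was more variable at day 8, where replicate 1 was the lowest, but the groups were well apart (log2 fold change 2.43 ± 0.13, edgeR adjusted p = 4.29e-10).

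Egln3, one of the prolyl hydroxylases that mark HIF for destruction, was at 16.3, 21.2 and 23.8 FPKM at day 4 and 56.2, 61.7 and 74.1 FPKM at day 8, and its log2 fold change was 1.69 ± 0.12 (edgeR adjusted p = 6.87e-09). The adenylate kinase Ak4 was at 1.51, 2.6 and 2.36 FPKM at day 4 and 6.81, 8.82 and 9.44 FPKM at day 8 (edgeR adjusted p = 5.42e-08). Bnip3, which directs mitochondria to autophagy, was at 82.3, 104 and 132 FPKM at day 4 and 217, 247 and 259 FPKM at day 8, with a log2 fold change of 1.23 ± 0.12 (edgeR adjusted p = 3.66e-07). For all of these, every day 8 sample lay above every day 4 sample. Selenbp1, a methanethiol oxidase, had a log2 fold change of 2.79 ± 0.13 (edgeR adjusted p = 8.94e-11), but 46.3% of its sequence is shared with Selenbp2 and reads may have been split between the copies. Antisense genes lie over 22.3% of the exon bases of Bnip3. The angiogenic factor Vegfa was higher by less than 2-fold, with a log2 fold change of 0.88 ± 0.08 (edgeR adjusted p = 2.52e-07).

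The genes of the HIF factors themselves differed in direction. Epas1, which encodes HIF-2α, was at 12.8, 13.1 and 12.5 FPKM at day 4 and 17.9, 19.1 and 19 FPKM at day 8, higher by less than 2-fold (log2 fold change 0.59 ± 0.05, edgeR adjusted p = 1.09e-07). Hif1a was at 38.8, 35.9 and 35.1 FPKM at day 4 and 34.4, 34.3 and 32.5 FPKM at day 8, with every day 8 value slightly below every day 4 value, but the test did not call a difference (log2 fold change -0.06 ± 0.05, edgeR adjusted p = 0.341). Hif3a, which encodes a form that can restrain the others, was at 5.14, 5.09 and 5.24 FPKM at day 4 and 0.87, 0.91 and 1.01 FPKM at day 8 and fell, with a log2 fold change of -2.42 ± 0.10 (edgeR adjusted p = 2.07e-11). Ddit4, an inhibitor of the mTOR kinase, was the other member that fell, at 99.1, 106 and 109 FPKM at day 4 and 38.5, 39.6 and 46.1 FPKM at day 8 (log2 fold change -1.29 ± 0.06, edgeR adjusted p = 1.80e-10). Both Hif3a and Ddit4 also stand in the list of glucocorticoid-responsive genes. The other genes called higher included Car12, another membrane carbonic anhydrase (2.24 ± 0.26), the prolyl hydroxylase Egln1 (1.42 ± 0.08) and the metastasis-related stress protein Ndrg1 (1.79 ± 0.20), given as log2 fold changes. The most abundant member, annexin A2, Anxa2, had a log2 fold change of 0.14 ± 0.05.

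The promoters of 3 of the genes that rose are shown because they hold ACGTG, the core of the hypoxia element, close to the start site. Each is the 250 bases before the start in GRCm38.p6, with the core in capitals, on either strand: Car9 (chr4:43506776-43507025, plus strand), Bnip3 (chr7:138909507-138909756, minus strand) and Slc2a1 (chr4:119108495-119108744, plus strand). The core begins 18 bases before the start in Car9 and 36 bases before it in Slc2a1.
Car9: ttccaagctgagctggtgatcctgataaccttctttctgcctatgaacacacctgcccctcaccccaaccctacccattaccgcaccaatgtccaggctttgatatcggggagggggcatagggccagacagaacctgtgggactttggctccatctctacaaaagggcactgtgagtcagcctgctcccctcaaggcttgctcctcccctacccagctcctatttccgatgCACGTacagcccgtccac
Bnip3: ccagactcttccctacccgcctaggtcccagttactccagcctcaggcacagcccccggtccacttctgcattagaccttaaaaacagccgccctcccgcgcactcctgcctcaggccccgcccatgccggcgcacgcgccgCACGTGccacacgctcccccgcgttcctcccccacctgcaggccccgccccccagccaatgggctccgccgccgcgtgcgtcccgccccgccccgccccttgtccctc
Slc2a1: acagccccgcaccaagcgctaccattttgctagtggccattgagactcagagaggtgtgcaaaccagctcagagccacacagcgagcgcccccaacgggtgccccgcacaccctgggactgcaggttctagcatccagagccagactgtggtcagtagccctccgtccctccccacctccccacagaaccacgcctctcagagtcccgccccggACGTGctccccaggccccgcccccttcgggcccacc
The capitals of Bnip3 are a CACGTG, which reads ACGTG on both strands and is also the E-box that clock factors bind. ACGTG was found in 57.7% of the 26 promoters of the hypoxia members called higher, in 25.0% of the promoters of tested genes and in 19.6% of all promoters. For all genes called higher and lower the shares were 20.9% and 16.9%. Of the 7 promoters of MAP kinase feedback genes called higher, 42.9% held it. It was also in 80.0% of the 5 promoters of thermogenic genes called higher, in 4 of the 8 of the ATF4 genes and 3 of the 6 each of the clock and elastic fibre genes called higher and in 33.3% of those of the glucocorticoid-responsive genes called lower. This motif was added after the values were seen, and the promoters of a gene with several starts can overlap.

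Genes of glycolysis were mostly higher as well, and 3 of them are also in the hypoxia list. Of 27 tested members 10 were called higher and none lower, and at any fold 22 were higher and 2 lower. The glucose transporter Slc2a1 (GLUT1), found in most cells, was at 42.1, 43.5 and 42.1 FPKM at day 4 and 103, 111 and 123 FPKM at day 8. The day 4 samples were nearly equal, every day 8 sample was above 100 FPKM, and the log2 fold change was 1.45 ± 0.06 (edgeR adjusted p = 3.19e-11). The insulin-regulated transporter Slc2a4 (GLUT4) was at 16.9, 22.6 and 27.3 FPKM at day 4 and 47, 52.1 and 55.4 FPKM at day 8, with a log2 fold change of 1.26 ± 0.12 (edgeR adjusted p = 3.09e-07). Gapdh, which oxidises glyceraldehyde phosphate and is often used as a reference gene, was at 1914, 2256 and 2277 FPKM at day 4 and 4635, 5197 and 5944 FPKM at day 8, the highest level of the list. All day 8 samples lay above all day 4 samples (log2 fold change 1.34 ± 0.08, edgeR adjusted p = 2.74e-09), and 24.7% of its sequence is shared with pseudogenes. Aldoc, an aldolase typical of brain, had the largest fold (2.84 ± 0.50 on the log2 scale) at the lowest level, not above 0.31 FPKM. Eno2, an enolase, had a log2 fold change of 1.75 ± 0.11 (edgeR adjusted p = 2.21e-09). The lactate dehydrogenase subunit gene Ldha was higher by less than 2-fold (357, 467 and 486 FPKM at day 4 and 723, 790.2 and 797 FPKM at day 8, log2 fold change 0.86 ± 0.09, edgeR adjusted p = 1.75e-06), while the groups of Ldhb overlapped (log2 fold change -0.02 ± 0.05, edgeR adjusted p = 0.813). The regulatory kinase Pfkfb1 rose by 1.35 ± 0.11. Without day 4 replicate 1, which had the lowest level of several of these genes, 6 members were called higher.

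**Figure D3:**
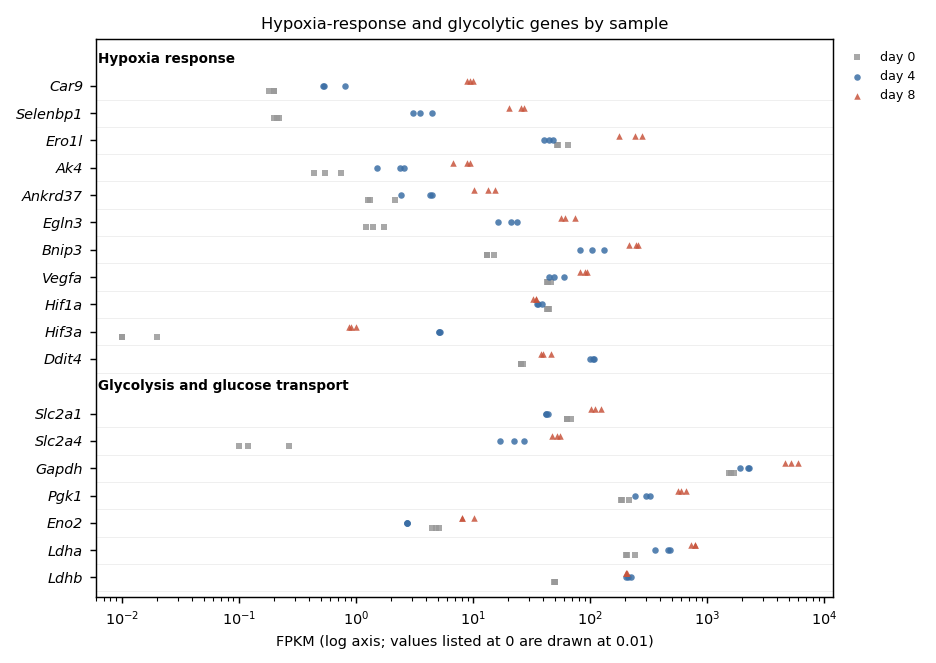
FPKM of each sample (log axis) for hypoxia-response and glycolytic genes, with day 0 as grey squares, day 4 as blue circles and day 8 as red triangles. Car9 moves from below 1 FPKM at day 4 to 8.96, 9.35 and 10.1 FPKM at day 8, Hif1a stays between 32.5 and 38.8 FPKM, and Hif3a and Ddit4 are lower at day 8.

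Adrb3, Hcar1, Hcar2 and Sucnr1, receptors by which hormones and metabolites control fat breakdown, rose. Of 29 tested members of the list of lipolysis and its hormonal control, 9 were called higher and none lower. Adrb3, the β3-adrenergic receptor through which noradrenaline stimulates lipolysis in fat cells, was listed at 0 in all day 0 samples and was at 1.29, 1.29 and 1.74 FPKM at day 4 and 7.24, 8.19 and 7.22 FPKM at day 8. Its log2 fold change was 2.44 ± 0.13 (edgeR adjusted p = 1.67e-09), and an antisense gene lies over 24.9% of its exon bases. Receptors that restrain lipolysis were among the other rises. Hcar1, the lactate receptor, was at 2.81, 3.72 and 4.54 FPKM at day 4 and 16.2, 18.1 and 16.8 FPKM at day 8 (log2 fold change 2.26 ± 0.12, edgeR adjusted p = 3.30e-10), and Hcar2, the receptor for hydroxybutyrate and niacin, at 3.09, 3.94 and 3.69 FPKM at day 4 and 18.2, 23 and 21.5 FPKM at day 8 (log2 fold change 2.59 ± 0.11, edgeR adjusted p = 3.08e-11). For all 3 receptors the groups were fully separated.

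Among the lipases, Pnpla2 and Lipe changed by less than 2-fold, while Mgll was called higher. Pnpla2, the lipase that takes the first fatty acid from triglyceride, was at 436, 538 and 543 FPKM at day 4 and 400.2, 424 and 421 FPKM at day 8, slightly lower in every day 8 sample, with a log2 fold change of -0.24 ± 0.07 (edgeR adjusted p = 0.0108). Lipe, the hormone-sensitive lipase, was higher by less than 2-fold (127, 159.9 and 169.9 FPKM at day 4 and 237, 253 and 256 FPKM at day 8, log2 fold change 0.75 ± 0.08, edgeR adjusted p = 8.61e-07). Mgll, which completes the breakdown, was at 4.15, 4.9 and 4.89 FPKM at day 4 and 12.8, 14 and 14.7 FPKM at day 8 and rose by 1.62 ± 0.09 (edgeR adjusted p = 5.17e-10). G0s2, an inhibitor of the Pnpla2 protein, was at 71.4, 95.9 and 102 FPKM at day 4 and 223, 247 and 257 FPKM at day 8 and rose by 1.48 ± 0.09 on the log2 scale (edgeR adjusted p = 3.21e-09). Among the others called higher were Sucnr1, the receptor for succinate, which restrains lipolysis (2.62 ± 0.31), and the carboxylesterase Ces1f (2.18 ± 0.11), given as log2 fold changes.

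Both free fatty acid receptors named here rose, Ffar4 being among the 15 largest rises. In the list of fatty acid uptake, binding and activation, 4 of 23 tested members were called higher and none lower. Ffar4, the receptor for long-chain fatty acids, was at 0.47, 1.14 and 1.07 FPKM at day 4 and 17.4, 20.1 and 21.2 FPKM at day 8, and at 0 in every day 0 sample, with a log2 fold change of 4.50 ± 0.19 (edgeR adjusted p = 1.80e-10). Ffar2, the receptor for short-chain fatty acids, had a log2 fold change of 1.84 ± 0.14 (edgeR adjusted p = 1.87e-08). Apoc1, an apolipoprotein, and Gpihbp1, which anchors lipoprotein lipase, rose by 2.37 ± 0.12 and 1.92 ± 0.43. The most abundant member, the fatty acid binding protein Fabp4, was at 3314, 3979 and 4863 FPKM at day 4 and 4654, 4939 and 4891 FPKM at day 8. Its day 4 replicate 3 lay within the day 8 range, and the log2 fold change was 0.30 ± 0.10 (edgeR adjusted p = 0.0194).

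In de novo lipogenesis, 2 of 27 tested members were called higher (7.41%) and 1 lower (3.70%), near the 4.24% and 2.81% of all genes. At any fold, 13 were higher and 4 lower. Scd1, the desaturase that makes monounsaturated fatty acids and the most abundant member, was at 557, 680.2 and 719 FPKM at day 4 and 1724, 2102 and 2129 FPKM at day 8, with all day 8 samples above 1700 FPKM and a log2 fold change of 1.65 ± 0.10 (edgeR adjusted p = 1.51e-09). Thrsp, a regulator of fatty acid synthesis, went the other way, at 137, 162 and 176 FPKM at day 4 and 37.6, 39 and 36 FPKM at day 8 (log2 fold change -2.03 ± 0.08, edgeR adjusted p = 5.65e-12). The other gene called higher was Pnpla3, adiponutrin, a lipid droplet enzyme (2.37 ± 0.21). The fatty acid synthase Fasn was at 94.6, 109 and 98.8 FPKM at day 4 and 104, 107 and 109 FPKM at day 8, with overlapping groups (log2 fold change 0.13 ± 0.06, edgeR adjusted p = 0.0746). Without day 4 replicate 2, or without day 8 replicate 1, 4 members of this list were called higher, and without day 4 replicate 1, or without day 8 replicate 2, 2 were called lower. In triglyceride synthesis and glyceroneogenesis, 2 of 20 members were called higher and none lower, with 9 higher and 4 lower at any fold. The first was Pck1, the enzyme that feeds glyceroneogenesis, at 0.3, 0.44 and 0.68 FPKM at day 4 and 10.2, 11 and 10.8 FPKM at day 8, with a log2 fold change of 4.53 ± 0.15 (edgeR adjusted p = 1.72e-12). The other, Aqp7, the glycerol channel, had a log2 fold change of 1.02 ± 0.12 (edgeR adjusted p = 2.87e-06) and was not past 2-fold without day 4 replicate 1 (0.90) or without day 8 replicate 2 (0.98), nor with library size alone (0.97). Limma on log2(FPKM + 1) and on log2(FPKM + 0.1) also left Aqp7 short of 2-fold (0.80 and 0.96). The most abundant member, Gpd1, which makes glycerol phosphate, had a log2 fold change of 0.94 ± 0.06 and was past 2-fold without day 4 replicate 2 (1.02). In cholesterol synthesis and uptake, 14 of 28 members were higher and 3 lower at any fold. The 1 call was downward (3.57%, against 2.81% of all genes). It was Cyp51, lanosterol demethylase, which fell from 48.3, 53.5 and 60.1 FPKM to 20.5, 21.4 and 19.9 FPKM (log2 fold change -1.35 ± 0.08, edgeR adjusted p = 1.66e-09).

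Genes of lipid droplet proteins had no common direction. Of 19 tested members 4 were called higher and none lower, with a median log2 fold change of 0.00. The 4 were Pnpla3 and G0s2, described above, Cideb (1.26 ± 0.46) and the hypoxia-inducible droplet protein Hilpda (1.12 ± 0.11). The call of Cideb, with 76.3% of its exon bases under an antisense gene, was lost with DESeq2 (adjusted p = 0.109), without the filter (0.0643) and without day 4 replicate 1 or 2 or any day 8 sample (edgeR adjusted p between 0.0551 and 0.119). The most abundant one, Cidec, which fuses droplets, was at 628, 806 and 886 FPKM at day 4 and 762, 798 and 769 FPKM at day 8. The day 8 values lay within the day 4 range, and the log2 fold change was 0.05 ± 0.09 (edgeR adjusted p = 0.66). Plin1, which guards the droplet surface, was higher in every day 8 sample (log2 fold change 0.94 ± 0.09, edgeR adjusted p = 2.28e-07) and was past 2-fold without day 4 replicate 2 (1.02) or day 4 replicate 3 (1.03). When day 4 replicate 1 or day 8 replicate 1 was left out, 1 member of the list was called lower.

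Genes of the respiratory chain and ATP synthase were more often higher than lower at any fold. Of 75 tested, 38 (50.7%) were higher and 1 (1.33%) lower, against 22.5% and 22.7% of all genes (median log2 fold change 0.16). Of them 2 (2.67%) were called higher and none lower, against 4.24% and 2.81% of all genes. These 2, Cox8b and Cox7a1, encode the heart and muscle type subunits of cytochrome oxidase that are also known from brown fat. Cox8b was at 1.83, 1.53 and 2.16 FPKM at day 4 and 13.2, 12.8 and 10.7 FPKM at day 8. Cox7a1 was at 1.78, 1.76 and 1.96 FPKM at day 4 and 10.8, 13.9 and 11.8 FPKM at day 8. The groups did not overlap, and both genes had a log2 fold change of 2.77. Another subunit of this type, Cox6a2, was among the 15 largest rises, at 0.99, 1.58 and 1.24 FPKM at day 4 and 15, 13 and 15.9 FPKM at day 8 (log2 fold change 3.56 ± 0.17, edgeR adjusted p = 1.58e-10). The uncoupling protein gene Ucp1, the mark of brown fat, was at 0.06, 0 and 0.06 FPKM at day 4 and 0, 0 and 0 FPKM at day 8, too low to be tested. Of 17 tested thermogenic genes 5 were called higher. These were Cox8b, Cox7a1, the proton channel Otop1 (2.46 ± 0.48), the uncoupling protein homologue Ucp3 (2.12 ± 0.33) and the secreted factor Nrg4 (1.01 ± 0.15). Nrg4 was not past 2-fold without day 4 replicate 1 (0.90) or without day 8 replicate 2 (0.94), nor with library size alone (0.97). With limma on log2(FPKM + 1) and on log2(FPKM + 0.1) it was also short of 2-fold (0.75 and 0.95). In the citrate cycle with pyruvate dehydrogenase, 1 of 31 members was called higher and 1 lower (3.23% each), near the 4.24% and 2.81% of all genes. Both were kinases that shut pyruvate dehydrogenase. Pdk1, also in the hypoxia list, rose (10.6, 13.3 and 14.9 FPKM at day 4 and 28.3, 32 and 34.1 FPKM at day 8, log2 fold change 1.33 ± 0.09, edgeR adjusted p = 8.65e-09), and Pdk4, also in the glucocorticoid list, fell (18.4, 15.4 and 15.7 FPKM at day 4 and 3.99, 4.36 and 4.02 FPKM at day 8, log2 fold change -1.95 ± 0.08, edgeR adjusted p = 3.08e-11). The 40 tested genes of fatty acid and branched-chain breakdown gave 1 call upward (2.5%) and none downward, against 4.24% and 2.81% of all genes. The call was the thioesterase Acot2 (1.06 ± 0.09, with 27.7% of its sequence shared with other genes). At any fold, 15 of the 40 were higher and 6 lower, against 22.5% and 22.7% of all genes.

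Of the adipocyte transcription factors, the central ones were higher by less than 2-fold. Pparg was at 87.6, 91.9 and 100.2 FPKM at day 4 and 119, 136 and 133 FPKM at day 8 (log2 fold change 0.52 ± 0.06, edgeR adjusted p = 2.67e-06). Cebpa was at 70.5, 89.3 and 102 FPKM at day 4 and 118, 126 and 126 FPKM at day 8 (log2 fold change 0.54 ± 0.09, edgeR adjusted p = 0.000134). Their day 8 samples were all above their day 4 samples. Of 32 tested members, 3 (9.38%) were called higher and 2 (6.25%) lower, against 4.24% and 2.81% of all genes. Cebpd, an early factor of the cascade and known to respond to glucocorticoids, was at 98.4, 102 and 101 FPKM at day 4 and 18.6, 17.5 and 17.7 FPKM at day 8, with the day 8 samples below the day 0 samples (21.4, 22 and 25.6 FPKM) and a log2 fold change of -2.44 ± 0.06 (edgeR adjusted p = 6.03e-14). Klf5, which acts early in adipogenesis, was at 15.3, 13.8 and 12.5 FPKM at day 4 and 1.27, 0.69 and 1.05 FPKM at day 8, with a log2 fold change of -3.74 ± 0.17 (edgeR adjusted p = 5.45e-11), again below its day 0 values of 2.39, 3.39 and 2.36 FPKM. Klf15, a factor known to raise GLUT4 expression, was at 5.29, 6.19 and 6.97 FPKM at day 4 and 14.4, 16.5 and 16.2 FPKM at day 8 and rose by 1.40 ± 0.10 (edgeR adjusted p = 1.19e-08). Gata2, known to hold cells in the preadipocyte state, was at 1.76, 1.98 and 1.64 FPKM at day 4 and 3.94, 3.64 and 3.45 FPKM at day 8 (log2 fold change 1.08 ± 0.10, edgeR adjusted p = 3.99e-07), and remained below its day 0 values of 9.65, 9.51 and 10.9 FPKM. It was short of 2-fold with limma on log2(FPKM + 1) (0.74) and on log2(FPKM + 0.1) (0.998).

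The secreted products of the fat cell changed in both directions. Of 29 tested adipokines and secreted adipocyte factors, 8 were called higher and 5 lower. Rarres2, the chemokine-like adipokine chemerin, was at 112, 149 and 164 FPKM at day 4 and 439, 461 and 501 FPKM at day 8, with a log2 fold change of 1.77 ± 0.10 (edgeR adjusted p = 8.46e-10), although an antisense gene lies over 33.6% of its exon bases. Cfd, adipsin, a protease of the complement system, was at 201, 263 and 324 FPKM at day 4 and 542, 612 and 673 FPKM at day 8 (log2 fold change 1.26 ± 0.12, edgeR adjusted p = 3.13e-07). Adiponectin, Adipoq, was at 374, 464 and 561 FPKM at day 4 and 753, 840.4 and 866 FPKM at day 8, higher in every day 8 sample by less than 2-fold (log2 fold change 0.86 ± 0.10, edgeR adjusted p = 5.51e-06), and without day 4 replicate 3 its log2 fold change was 1.01. C1qtnf7, a relative of adiponectin, and the peptide gene Apln rose by 2.04 ± 0.45 and 1.56 ± 0.09 on the log2 scale, and another relative, Fam132a, by 1.36 ± 0.17. C1qtnf7 did not exceed 0.67 FPKM and had 5, 3 and 3 counts at day 4. Leptin, Lep, was low, at 0.12, 0.19 and 0.16 FPKM at day 4 and 0.74, 0.94 and 0.98 FPKM at day 8 (log2 fold change 2.53 ± 0.27, edgeR adjusted p = 3.83e-06).

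Among the secreted factors that fell was Agt, angiotensinogen, the source of angiotensin. It was at 861, 916 and 899 FPKM at day 4 and 237, 242 and 236 FPKM at day 8, and the log2 fold change was -1.86 ± 0.05 (edgeR adjusted p = 1.34e-13). The haemoglobin-binding protein haptoglobin, Hp, fell from 149, 184 and 213 FPKM to 52.4, 58.4 and 56.4 FPKM (log2 fold change -1.66 ± 0.09, edgeR adjusted p = 7.69e-10). The resistin-like gene Retnla fell from 8.94, 13.8 and 17.4 FPKM to 1.56, 0.87 and 0.35 FPKM (log2 fold change -3.79 ± 0.33, edgeR adjusted p = 1.37e-07). In all 3 the groups were separate. Sfrp5, a Wnt-binding adipokine, was at 1.05, 1.27 and 1.13 FPKM at day 4 and 0, 0.08 and 0.19 FPKM at day 8 (log2 fold change -3.62 ± 0.48, edgeR adjusted p = 1.39e-05). The acute phase gene Saa3 fell as well (-1.76 ± 0.38). Of 17 tested complement genes 1 (5.88%) was called higher, Cfd, and 2 (11.8%) lower, against 4.24% and 2.81% of all genes. Of the 2 called lower, properdin, Cfp, had a log2 fold change of -1.13 ± 0.15. C3, the central component and the most abundant member, was at 607, 620.1 and 620.3 FPKM at day 4 and 274, 312 and 312 FPKM at day 8. Its log2 fold change of -0.995 ± 0.08 (edgeR adjusted p = 8.46e-08) lay at the 2-fold limit. It passed this limit without day 4 replicate 1 or without day 8 replicate 2 or 3. It also did so with upper-quartile factors (-1.003), library size alone (-1.04) and limma at either pseudocount (-1.04). With day 4 replicate 1 or day 8 replicate 3 left out, 4 complement genes were called lower, and without day 4 replicate 2, 2 were called higher.

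Peptide hormones and growth factors included the gene with the largest rise among called genes of average log2 CPM 1 or more without overlap between the groups. Of 18 tested members, 8 were called higher and 3 lower. Ghrh, growth hormone-releasing hormone, best known from the hypothalamus, was at 1.67, 6.39 and 9.54 FPKM at day 4 and 157, 212 and 266 FPKM at day 8. Day 4 replicate 1 was the lowest and day 8 replicate 1 the lowest of the day 8 samples, with a log2 fold change of 5.22 ± 0.27 (edgeR adjusted p = 2.83e-10). The insulin-like growth factor Igf1 was at 1.71, 1.52 and 1.77 FPKM at day 4 and 10.6, 11.4 and 9.74 FPKM at day 8 (log2 fold change 2.71 ± 0.09, edgeR adjusted p = 2.46e-12). Igf2 was at 10.9, 13.2 and 14.2 FPKM at day 4 and 55.1, 67.4 and 73 FPKM at day 8 (log2 fold change 2.42 ± 0.09, edgeR adjusted p = 5.47e-12), of which 61.2% of the sequence is shared with a readthrough gene. Adm2, a vasoactive peptide, rose by 2.35 ± 0.26. Insl3, an insulin-like peptide whose sequence is 61.8% shared with another gene, and Edn1, endothelin-1, fell with log2 fold changes of -2.22 ± 0.54 and -1.26 ± 0.32, the latter not past 2-fold without day 8 replicate 3 (-0.97).

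In the list of insulin and IGF signalling, 9 of 41 tested members were called higher and 2 lower. The binding protein Igfbp4, which holds IGFs outside the cell, was at 128, 159 and 166 FPKM at day 4 and 373, 406 and 430.1 FPKM at day 8 (log2 fold change 1.46 ± 0.09, edgeR adjusted p = 1.44e-09). Pik3r1, the regulatory subunit of the kinase that carries the insulin signal, was at 57.1, 53.9 and 59.9 FPKM at day 4 and 26.2, 25.9 and 24.4 FPKM at day 8 and fell (log2 fold change -1.11 ± 0.05, edgeR adjusted p = 1.45e-10). The insulin receptor gene Insr was at 9.47, 9.41 and 9.68 FPKM at day 4 and 7.86, 8.84 and 8.7 FPKM at day 8, with all day 8 samples below all day 4 samples, but without passing the test (log2 fold change -0.12 ± 0.05, edgeR adjusted p = 0.0666). Irs3, a rodent insulin receptor substrate of fat cells, rose by 2.45 ± 0.31, and Pik3ip1, an inhibitor of the kinase, fell (-1.16 ± 0.09). With day 4 replicate 3 left out, 4 members were called lower.

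**Figure D4:**
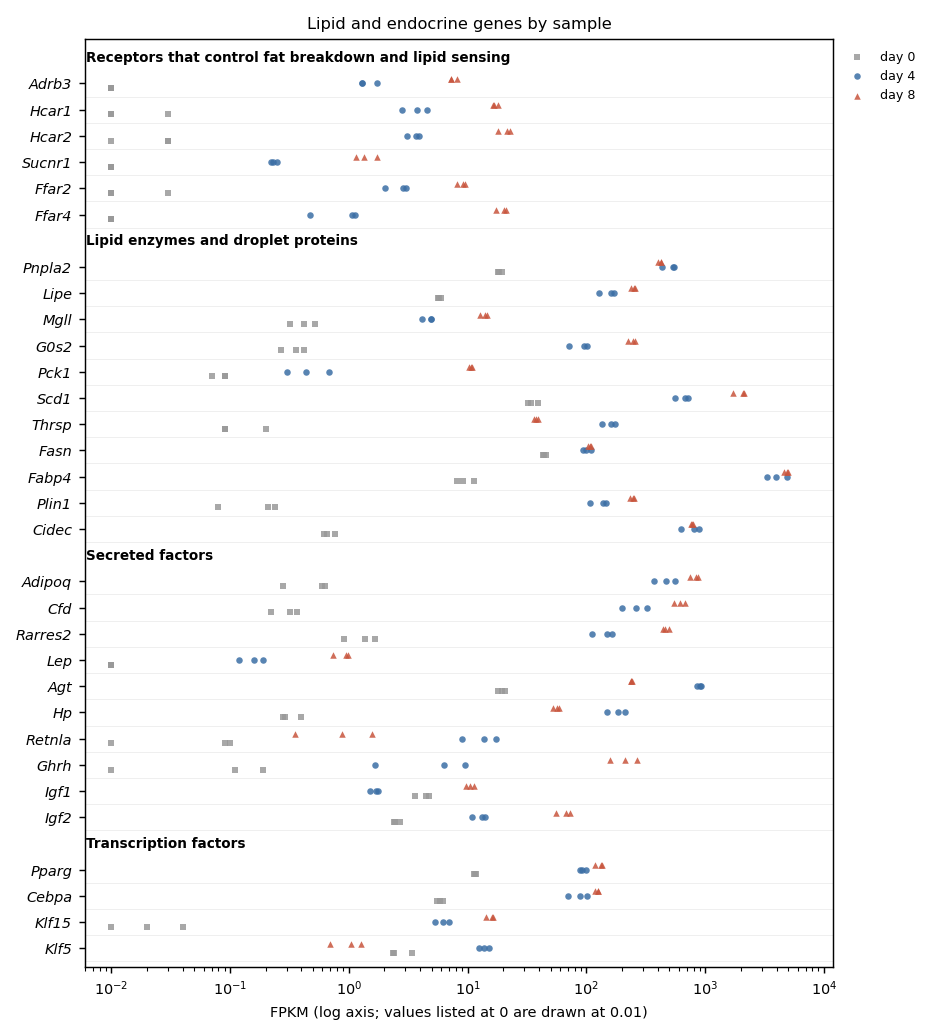
FPKM of each sample (log axis) for lipid receptors, lipid enzymes, secreted factors and transcription factors, with day 0 as grey squares, day 4 as blue circles and day 8 as red triangles. Ffar4 and Ghrh show the widest gaps between day 4 and day 8, Cidec overlaps between the days, and Thrsp, Agt, Hp, Retnla and Klf5 are lower at day 8.

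Among the matrix lists, the small proteoglycans had the highest median log2 fold change. These are leucine-rich proteins that bind collagen fibrils and set their spacing. Of 14 tested members 7 were called higher and none lower. Lum, lumican, was at 23.6, 23.3 and 24.5 FPKM at day 4 and 200.3, 193 and 191 FPKM at day 8. The 3 samples of a day were within a narrow range, and the log2 fold change was 3.08 ± 0.06 (edgeR adjusted p = 8.51e-15). Fmod, fibromodulin, was at 3.13, 3.07 and 2.35 FPKM at day 4 and 22.3, 22.3 and 23.3 FPKM at day 8 (log2 fold change 3.03 ± 0.09, edgeR adjusted p = 2.03e-13). Dcn, decorin, and Epyc, epiphycan, rose by 1.80 ± 0.07 and 1.44 ± 0.49. The call of Epyc, with 40.6% of its exon bases under an antisense gene, was lost with DESeq2 (adjusted p = 0.0507) and without day 4 replicate 2 or 3 or day 8 replicate 2 or 3 (edgeR adjusted p between 0.0506 and 0.135). Podnl1 rose by 1.06 ± 0.15 and was not past 2-fold without day 4 replicate 2 (0.96) or day 8 replicate 1 (0.96). Bgn, biglycan, the most abundant member, was at 2544, 2492 and 2385 FPKM at day 4 and 2572, 2473 and 2546 FPKM at day 8, and was not called (log2 fold change 0.08 ± 0.05, edgeR adjusted p = 0.193).

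Genes of elastic fibres and microfibrils gave 6 calls upward and 1 downward among 26 tested. Mfap4, a microfibril-associated protein, was at 2.51, 2.51 and 2.77 FPKM at day 4 and 45.1, 51.2 and 55 FPKM at day 8, with a log2 fold change of 4.32 ± 0.10 (edgeR adjusted p = 4.81e-14). Emilin2, a glycoprotein of these fibres, rose by 2.01 ± 0.23. Eln, tropoelastin, was at 0.92, 1.18 and 0.98 FPKM at day 4 and 6.75, 6.73 and 7.26 FPKM at day 8 (log2 fold change 2.79 ± 0.11, edgeR adjusted p = 1.21e-11). Fbn1, fibrillin-1, was at 15.3, 12.7 and 11.2 FPKM at day 4 and 33.5, 36.5 and 37.5 FPKM at day 8 and rose by 1.50 ± 0.09 (edgeR adjusted p = 1.66e-09), but stayed below its day 0 values of 60.8, 53.3 and 58.1 FPKM. An antisense gene lies over 20.1% of its exon bases. Adamtsl4, which aids fibrillin assembly, fell from 27, 26.1 and 23.8 FPKM to 8.24, 7.89 and 8.03 FPKM (log2 fold change -1.63 ± 0.06, edgeR adjusted p = 6.40e-12). Lox, the enzyme that crosslinks elastin and collagen and the most abundant member, was lower by less than 2-fold (log2 fold change -0.63 ± 0.06, edgeR adjusted p = 2.83e-07).

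The collagens moved in both directions. Of 22 fibrillar and other collagens, 4 were called higher and 3 lower, and at any fold 10 were higher and 9 lower. Among the abundant fibrillar chains, Col3a1 was at 838, 802 and 798 FPKM at day 4 and 1847, 1884 and 1943 FPKM at day 8 (log2 fold change 1.26 ± 0.08, edgeR adjusted p = 3.75e-09). Col1a1 had a log2 fold change of 0.85 ± 0.05 (edgeR adjusted p = 1.66e-09) and Col1a2 of 0.81 ± 0.06 (edgeR adjusted p = 1.85e-08), both higher in every day 8 sample. Col14a1, which sits on the surface of fibrils, and Col8a1, a short-chain collagen, rose by 2.19 ± 0.52 and 1.52 ± 0.21, and Col7a1, the anchoring fibril collagen, fell (-1.30 ± 0.18). The rise of Col14a1 rested on 5, 5 and 1 counts at day 4 and 17, 16 and 17 counts at day 8, at most 0.13 FPKM. The calls of Col23a1 (1.03 ± 0.07), Col20a1 (-1.05 ± 0.14) and Col11a2 (-1.01 ± 0.18) lay near the 2-fold limit and were lost without day 4 replicate 3 for Col23a1 (0.99), without day 8 replicate 1 or 2 for Col20a1 (-0.996 and -0.975) and without day 4 replicate 2 or 3 or day 8 replicate 2 for Col11a2 (-0.98, -0.90 and -0.87), that of Col11a2 also with DESeq2 (-0.991) and RLE factors (-0.990) and that of Col23a1 with library size alone (0.988). Of 28 collagen processing enzymes, the hydroxylases P4ha1 (1.08 ± 0.07) and Plod2 (1.10 ± 0.08), both also in the hypoxia list, were called higher, and 4 were called higher without day 4 replicate 1. In the basement membrane list, 4 of 24 members were called higher and 1 lower, the collagen Col4a3 (-1.26 ± 0.45), with 0 called lower when any of day 4 replicates 1 or 2 or day 8 replicates 2 or 3 was left out and with DESeq2 (adjusted p = 0.136). The laminin chain Lamb3 and the calcium-binding protein Smoc1 rose by 1.71 ± 0.18 and 1.48 ± 0.17, and the nidogen Nid2 by 1.03 ± 0.07, not past 2-fold without day 4 replicate 3 (0.96) or day 8 replicate 2 (0.9995), nor with library size alone (0.98). Col15a1, a basement membrane zone collagen, was at 4.03, 4.58 and 4.37 FPKM at day 4 and 17, 23.9 and 27.1 FPKM at day 8 (log2 fold change 2.44 ± 0.14, edgeR adjusted p = 1.04e-09), while Col4a1, the main network collagen, was lower by less than 2-fold at 881, 849 and 818 FPKM at day 4 and 457, 493 and 505 FPKM at day 8 (log2 fold change -0.76 ± 0.06, edgeR adjusted p = 1.45e-08).

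Matricellular proteins, proteases and adhesion receptors gave more calls upward than downward. Of 30 tested matricellular and adhesive glycoproteins 6 were called higher and 1 lower. Cpz, a carboxypeptidase that binds Wnt proteins, was at 0.36, 0.49 and 0.58 FPKM at day 4 and 10.9, 11.2 and 10.2 FPKM at day 8 (log2 fold change 4.53 ± 0.14, edgeR adjusted p = 4.40e-13). Thbs1, thrombospondin-1, and Tgfbi, a collagen-binding protein, rose by 1.22 ± 0.08 and 1.45 ± 0.05. Srpx, a sushi-repeat protein, and Matn4, a matrilin, rose by 1.87 ± 0.30 and 1.61 ± 0.06, and Tnn, tenascin N, fell (-1.54 ± 0.24). Without day 4 replicate 2 or day 8 replicate 3, 2 members were called lower.

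Of 44 matrix proteases and inhibitors, 10 (22.7%) were called higher and none lower, against 4.24% and 2.81% of all genes. The metalloproteinase Mmp3, stromelysin, was at 2.79, 2.73 and 2.29 FPKM at day 4 and 10.1, 11.1 and 8.57 FPKM at day 8 (log2 fold change 1.97 ± 0.11, edgeR adjusted p = 8.28e-10), with separate groups. Timp3, an inhibitor of these enzymes, Adamts16 and the collagenase Mmp13 rose by 2.69 ± 0.15, 2.43 ± 0.87 and 1.92 ± 0.16, and the inhibitor Timp4 by 1.21 ± 0.10. Adamts16 did not exceed 0.05 FPKM, and its call was lost with DESeq2 (adjusted p = 0.0612) and without day 4 replicate 1 or 3 or day 8 replicate 1 or 2 (edgeR adjusted p between 0.0632 and 0.102). An antisense gene lies over 21.3% of the exon bases of Timp3. Mmp2, gelatinase A and the most abundant member, had a log2 fold change of -0.11 ± 0.09 (edgeR adjusted p = 0.327). Without day 4 replicate 3, 6 were called higher, and without day 4 replicate 1 or day 8 replicate 1, 1 was called lower. Of 30 integrins and cadherins, 5 (16.7%) were called higher and 2 (6.67%) lower. Itga11, a subunit of a collagen receptor, was at 0.33, 0.24 and 0.32 FPKM at day 4 and 2.29, 2.17 and 2.53 FPKM at day 8 (log2 fold change 3.01 ± 0.14, edgeR adjusted p = 1.04e-10). Itga8, L1cam and Sdc3, other adhesion receptors, rose by 2.06 ± 0.19, 1.58 ± 0.17 and 1.56 ± 0.08, and the integrin subunits Itga4 and Itga10 fell (-1.31 ± 0.23 and -1.05 ± 0.24). Itga10, of which 30.6% of the sequence is shared with another gene, was not past 2-fold without day 4 replicate 1 (-0.91, leaving 1 member called lower), day 4 replicate 2 (-0.96) or day 8 replicate 1 (-0.93).

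**Figure D5:**
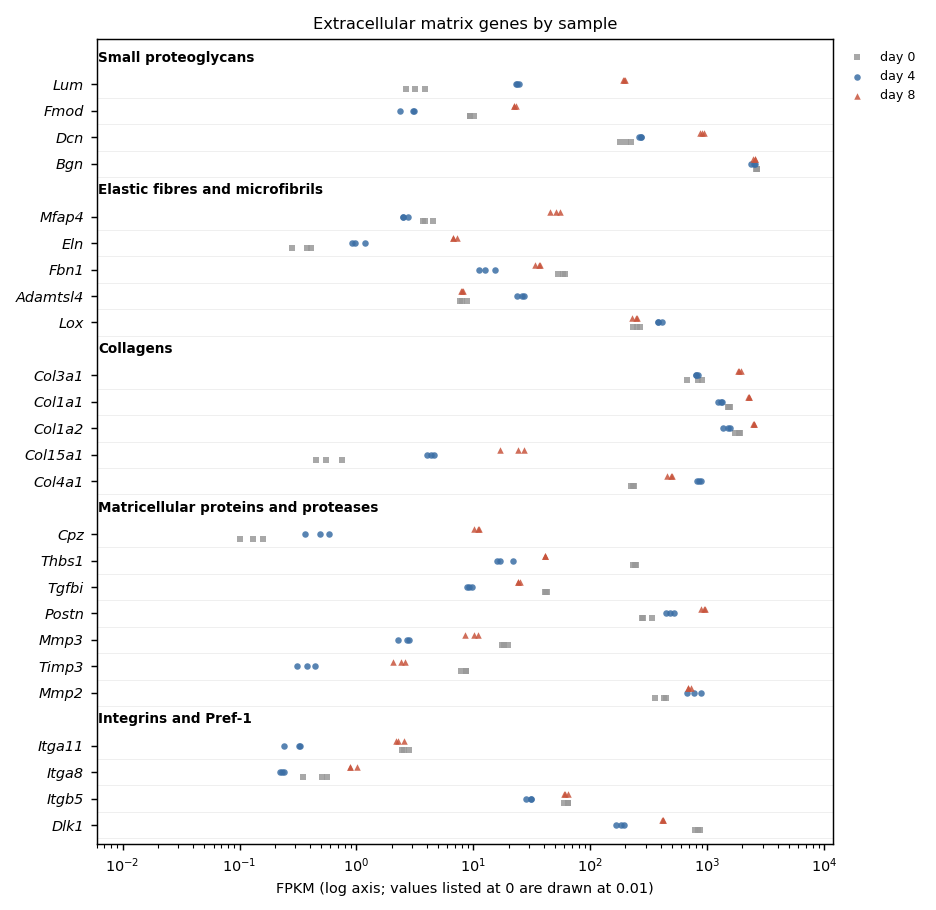
FPKM of each sample (log axis) for matrix, adhesion and Pref-1 genes, with day 0 as grey squares, day 4 as blue circles and day 8 as red triangles. Lum, Mfap4, Eln, Cpz and Itga11 are well separated between day 4 and day 8, Bgn and Mmp2 overlap between the days, and Lox, Col4a1 and Adamtsl4 are lower at day 8.

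Among the genes of the undifferentiated cell, Dlk1 was higher at day 8 than at day 4. Dlk1, Pref-1, a membrane protein that restrains adipogenesis, was at 794, 828 and 861 FPKM at day 0 and at 183, 193 and 166 FPKM at day 4 and 418, 409 and 419 FPKM at day 8. The day 8 samples were all above the day 4 samples and all below the day 0 samples, and the log2 fold change was 1.24 ± 0.06 (edgeR adjusted p = 9.35e-11). Of the 14 tested preadipocyte or fibroblast markers, 2 were called higher, Dlk1 and the fibroblast activation protein gene Fap, and none lower. At any fold, 7 were higher and 4 lower. The sum of this list was 6321 ± 285 FPKM (day 4) and 7856 ± 142 FPKM (day 8, SD, n = 3), its most abundant gene being Col1a2. The part of preadipocytes in the matrix and Pref-1 values was not tested. In the Notch list, 3 of 18 tested genes were called higher, Dlk1, the receptor Notch3 (1.59 ± 0.14) and the target Hey1 (1.64 ± 0.19), given as log2 fold changes.

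In the Wnt pathway 4 of 25 tested genes (16.0%) were called higher and 2 (8.0%) lower. Sfrp2, a secreted protein that binds Wnt, was at 15, 12.9 and 10.8 FPKM at day 4 and 40, 38.2 and 39 FPKM at day 8 (log2 fold change 1.64 ± 0.08, edgeR adjusted p = 2.27e-10). The R-spondins Rspo3 and Rspo2, which strengthen Wnt signals, and the receptor Fzd4 rose by 1.88 ± 0.34, 1.54 ± 0.42 and 1.12 ± 0.09. Lef1, a transcription factor of the pathway, fell from 14.1, 15.3 and 15.9 FPKM to 4.82, 5.14 and 4.39 FPKM (log2 fold change -1.50 ± 0.07, edgeR adjusted p = 1.72e-10). In the TGF-β and BMP pathway 4 of 42 (9.52%) were called higher and 1 (2.38%) lower, against 4.24% and 2.81% of all genes. The antagonist noggin (Nog), the activin subunit Inhbb, the growth factor Gdf5 and the receptor Tgfbr1 rose by 2.41 ± 0.34, 1.84 ± 0.09, 1.42 ± 0.14 and 1.26 ± 0.06. An antisense gene lies over 40.3% of the exon bases of Gdf5.

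The TRP channels, cation channels that the study examined, were mostly low. Of 28 channel names 24 were matched and 14 tested, of which 1 (7.14%) was called higher and 2 (14.3%) lower, against 4.24% and 2.81% of all tested genes. Trpv2 was at 1.33, 0.94 and 0.9 FPKM at day 4 and 0.38, 0.43 and 0.27 FPKM at day 8, with separate groups and a log2 fold change of -1.50 ± 0.25 (edgeR adjusted p = 0.000115). Trpc6 was at 0.18, 0.23 and 0.29 FPKM at day 4 and 0.06, 0.13 and 0.11 FPKM at day 8 (log2 fold change -1.14 ± 0.41, edgeR adjusted p = 0.0324), and it was not called when day 4 replicate 2, day 4 replicate 3, day 8 replicate 1 or day 8 replicate 3 was left out, with adjusted p between 0.0674 and 0.13, nor by DESeq2 (adjusted p = 0.087). Trpm5 rose and was at 0.09, 0.07 and 0.09 FPKM at day 4 and 0.47, 0.31 and 0.48 FPKM at day 8 (log2 fold change 2.37 ± 0.30, edgeR adjusted p = 9.43e-06). The most abundant members were Pkd2 and Mcoln1. Pkd2 was at 37.9, 35 and 34.8 FPKM at day 4 and 27.2, 28.7 and 27.4 FPKM at day 8 (log2 fold change -0.33 ± 0.05, edgeR adjusted p = 3.82e-05). Mcoln1 was at 33.8, 33.2 and 30.7 FPKM at day 4 and 28.4, 27.2 and 29.9 FPKM at day 8 (log2 fold change -0.15 ± 0.07, edgeR adjusted p = 0.103). Trpm7 was at 15.6, 13.5 and 14.2 FPKM at day 4 and 12.1, 12.8 and 11.4 FPKM at day 8 (log2 fold change -0.21 ± 0.06, edgeR adjusted p = 0.00622), and Trpc1 was lower by less than 2-fold (log2 fold change -0.64 ± 0.09, edgeR adjusted p = 4.15e-05). Trpm4 was higher by less than 2-fold (log2 fold change 0.38 ± 0.08, edgeR adjusted p = 0.000783). For Trpv1, Trpv4, Trpv6, Trpm3, Trpm6 and Pkd2l2 the groups overlapped, and the adjusted p was between 0.177 and 0.965. Of the 10 matched channels that were not tested, Trpa1 was at 0 in all 6 samples, and Trpm8 and Trpm2 did not exceed 0.01 FPKM. The cold and heat sensors Trpc5 and Trpv3 and the channels Trpc7, Trpm1, Mcoln2, Mcoln3 and Pkd2l1 reached at most 0.16 FPKM.

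Among stress programs, the amino acid response run by ATF4 was mostly higher. Of 41 tested members 7 were called higher and 2 lower, and at any fold 30 were higher and 4 lower (median log2 fold change 0.38). Trib3, a pseudokinase that binds AKT, was at 19.4, 19.4 and 20.6 FPKM at day 4 and 66.6, 69.7 and 75.2 FPKM at day 8 (log2 fold change 1.88 ± 0.06, edgeR adjusted p = 4.27e-13). Chac1, which breaks down glutathione, was at 13.5, 13.5 and 12.8 FPKM at day 4 and 42.2, 41.4 and 46.2 FPKM at day 8 (log2 fold change 1.75 ± 0.06, edgeR adjusted p = 3.08e-12). Gdf15, a stress hormone, and Ppp1r15a, a phosphatase subunit, rose by 2.11 ± 0.20 and 1.31 ± 0.08, and the arginine transporter Slc7a3 fell (-1.68 ± 0.34).

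The antioxidant list gave 4 calls upward (9.09%) and 1 downward (2.27%) among 44, against 4.24% and 2.81% of all genes. Hmox1, haem oxygenase, was at 141, 132 and 125 FPKM at day 4 and 306, 328 and 368 FPKM at day 8 (log2 fold change 1.38 ± 0.07, edgeR adjusted p = 1.58e-10), with separate groups. Sod3, the extracellular superoxide dismutase, was at 197, 196 and 179.8 FPKM at day 4 and 395, 391 and 398 FPKM at day 8 (log2 fold change 1.09 ± 0.05, edgeR adjusted p = 9.35e-11). The microsomal enzyme Mgst2 rose by 1.29 ± 0.18 and the glutathione transferase Gsta3 fell (-1.99 ± 0.31). Without day 8 replicate 2, 2 genes were called lower. Of 36 chaperones of the endoplasmic reticulum, Ero1l was the 1 called (2.78% higher, against 4.24% of all genes), with 10 higher and 9 lower at any fold.

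The promoters of Chac1 and Atf3, both called higher, are shown because they hold the amino acid response element TGATGNAA, which ATF4 is known to bind, read on the strand opposite to the one printed. They are the 250 bases before the start in GRCm38.p6, chr2:119350992-119351241, plus strand and chr1:191183334-191183583, minus strand, with the element in capitals.
Chac1: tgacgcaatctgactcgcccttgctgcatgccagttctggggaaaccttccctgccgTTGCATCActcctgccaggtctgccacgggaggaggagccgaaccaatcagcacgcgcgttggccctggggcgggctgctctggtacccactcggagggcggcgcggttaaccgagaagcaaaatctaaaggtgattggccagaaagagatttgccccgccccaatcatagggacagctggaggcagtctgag
Atf3: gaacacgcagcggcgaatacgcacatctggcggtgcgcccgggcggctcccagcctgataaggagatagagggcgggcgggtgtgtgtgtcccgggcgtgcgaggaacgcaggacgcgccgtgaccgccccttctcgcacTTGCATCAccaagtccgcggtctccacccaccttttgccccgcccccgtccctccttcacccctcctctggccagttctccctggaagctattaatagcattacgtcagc
The element was in 37.5% of the 8 promoters of the called higher members, 2.33% of the promoters of tested genes and 3.97% of all promoters. It was also in 4.38% of the promoters of all genes called higher, and in 1 of the 5 of the matricellular genes and 1 of the 6 each of the elastic fibre, protease and proteoglycan genes called higher.

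Immune genes gave calls in both directions. Of 29 tested chemokines and cytokines 7 were called higher and 2 lower (12 and 3 at any fold). Cxcl1 and Cxcl5, chemokines for neutrophils, rose by 1.64 ± 0.15 and 2.02 ± 0.18 on the log2 scale. Ccl11, eotaxin, and Il33, an alarm cytokine, rose by 2.87 ± 0.26 and 2.41 ± 0.35. Il1rn, the antagonist of interleukin-1, was at 6.88, 7.27 and 7.41 FPKM at day 4 and 0.89, 0.8 and 0.74 FPKM at day 8 and fell (log2 fold change -3.10 ± 0.14, edgeR adjusted p = 8.58e-11). Kitl, the ligand of the KIT receptor, fell from 43.4, 38.3 and 44.5 FPKM to 14.7, 14.9 and 14.2 FPKM (log2 fold change -1.48 ± 0.05, edgeR adjusted p = 3.80e-12). Of 47 interferon-stimulated genes 4 (8.51%) were called higher and 2 (4.26%) lower, against 4.24% and 2.81% of all genes, and at any fold 19 were higher and 4 lower. Those called higher were 8 without day 4 replicate 3. The DNA sensor gene Ifi204 fell from 65.7, 62.4 and 70.5 FPKM to 13.2, 14.2 and 13.6 FPKM (log2 fold change -2.23 ± 0.07, edgeR adjusted p = 7.94e-13), and its relative Ifi205 had a log2 fold change of -2.96 ± 0.17. The antiviral genes Ifit3b, Ifit3 and Ifit1 rose by 1.68 ± 0.27, 1.54 ± 0.23 and 1.13 ± 0.22, of which Ifit3b and Ifit3 share 45.0 and 51.2% of their sequence with other genes. The call of the GTPase Tgtp1 (1.60 ± 0.62, with 81.2% shared sequence) rested on values of at most 0.27 FPKM and was lost when any of day 4 replicates 1 or 2, day 8 replicates 1 or 2 or day 0 replicate 3 was left out.

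The lists of growth and housekeeping functions are described last. None of the 58 tested genes of DNA replication and mitosis was called, and at any fold 17 were higher and none lower. None of the 76 cytosolic ribosomal protein genes was called, but 48 were lower and none higher at any fold, with a median log2 fold change of -0.15. Their share of all counts was 4.13, 4.33 and 4.44% in the day 4 samples and 3.77, 3.63 and 3.74% in the day 8 samples. The 37 tested lysosomal genes included 14 lower and 5 higher at any fold. The most abundant, Psap, was at 1058, 1001 and 956 FPKM at day 4 and 652, 651 and 643 FPKM at day 8 (log2 fold change -0.59 ± 0.05, edgeR adjusted p = 2.39e-07). Of 44 actin and contractile genes 2 (4.55%) were called in each direction, against 4.24% and 2.81% of all genes, with 1 downward call without day 4 replicate 1 or day 8 replicate 2 and 1 upward call without day 4 replicate 3. The myosin light chain Myl9 rose by 1.26 ± 0.16, and Tes, an adhesion protein, and Lmod1, leiomodin-1, fell (-1.36 ± 0.11 and -1.04 ± 0.16). Actb was at 1279, 1328 and 1337 FPKM at day 4 and 1279, 1243 and 1184 FPKM at day 8, and no day 8 value was above a day 4 value (log2 fold change -0.05 ± 0.05, edgeR adjusted p = 0.524). Of 24 target genes of YAP and SRF, 1 (4.17%, against 2.81% of all genes) was called lower, Gadd45b (-1.70 ± 0.11). Without day 4 replicate 2, 2 were called lower.

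The most abundant members of the lists, by mean FPKM, changed by less than 2-fold where they are not described above. Those higher in the test were Atf5 (0.63 ± 0.05), Cox6a1 (0.26 ± 0.06), Ctnnb1 (0.17 ± 0.05), Cxcl12 (0.59 ± 0.05), Eif4ebp1 (0.80 ± 0.05), Etfb (0.32 ± 0.08), Fdps (0.46 ± 0.08), Gnas (0.17 ± 0.05), Ifi27 (0.44 ± 0.08), Postn (0.99 ± 0.07), Sparc (0.44 ± 0.04), Thy1 (0.45 ± 0.05) and Ucp2 (0.28 ± 0.07). Postn was past 2-fold without day 4 replicate 1 (1.06) or day 8 replicate 3 (1.05), and with RLE factors or DESeq2 (1.01 each). Those lower in the test were Calr (-0.34 ± 0.04), Fstl1 (-0.18 ± 0.06) and Rplp1 (-0.18 ± 0.05). Csnk1d, Egr1, Gstp1, Mdh2, Mdm2, Pcna and Pcolce did not pass it. Etfb, Fdps, Rplp1 and Gstp1 share 44.8, 26.2, 60.0 and 33.7% of their sequence with other genes. An antisense gene lies over 22.0% of the exon bases of Gnas.

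Several of the largest changes lay outside these lists. Among the rises, Tusc5, a membrane protein that helps the traffic of GLUT4, was at 2.45, 2.77 and 3.31 FPKM at day 4 and 31.4, 35.1 and 40.9 FPKM at day 8 (log2 fold change 3.70 ± 0.13, edgeR adjusted p = 2.29e-12). Sncg, γ-synuclein, was at 4.74, 5.49 and 6.66 FPKM at day 4 and 60.1, 67.3 and 73.8 FPKM at day 8 (log2 fold change 3.62 ± 0.11, edgeR adjusted p = 6.39e-13). Car3, the abundant carbonic anhydrase of fat and muscle and one of the adipocyte markers, was at 4.74, 6.04 and 6.46 FPKM at day 4 and 50.1, 59.1 and 62.7 FPKM at day 8 (log2 fold change 3.36 ± 0.11, edgeR adjusted p = 6.98e-13). Pla2g2e, a secreted phospholipase, Krt19, a keratin, Dmkn, a secreted skin protein, Gpr35, an orphan receptor, Itgad, an integrin subunit, and Camk1g, a calmodulin-dependent kinase, had log2 fold changes between 3.49 and 4.03, and none of them was above 16 FPKM in any sample.

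Among the falls, Cpm, a membrane carboxypeptidase, was at 12.8, 13.2 and 11.4 FPKM at day 4 and 0.74, 0.68 and 0.65 FPKM at day 8 (log2 fold change -4.13 ± 0.11, edgeR adjusted p = 1.29e-13). Aldh1a1, which makes retinoic acid, was at 19.7, 16.7 and 17.9 FPKM at day 4 and 1.46, 1.5 and 1.75 FPKM at day 8 (log2 fold change -3.47 ± 0.12, edgeR adjusted p = 1.54e-12). Orm3, a member of the orosomucoid family of acute phase proteins, was at 45.9, 46.6 and 48.9 FPKM at day 4 and 4.59, 2.85 and 3.82 FPKM at day 8 (log2 fold change -3.61 ± 0.13, edgeR adjusted p = 2.29e-12). Adcyap1r1, the receptor of the peptide PACAP, fell from 1.95, 1.7 and 1.34 FPKM to 0.14, 0.13 and 0.17 FPKM (log2 fold change -3.44 ± 0.21, edgeR adjusted p = 1.55e-09). 4930481A15Rik, AI607873, Fam46b, Map7d2 and E030003E18Rik also belonged to the 15 largest falls, with log2 fold changes between -6.69 and -3.41 and complete separation of the groups.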

How the data were processed

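RNA-seq of 9 samples of 3T3-L1 cells (3 each at day 0, day 4 and day 8) was analysed. The authors deposited, for each sample and gene, expected counts and FPKM values. The methods name RSEM as the quantifier, and the submitters' processing notes name CASAVA 1.4 and Bowtie2. The genome build and the strand setting are not given in the sources used here, so the only coordinates given are those of RefSeq promoters. A gene missing from a sample's file was taken as 0. Expected counts, of which 29.8% were not whole, were rounded to whole numbers.

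Genes were filtered with filterByExpr and scaled by TMM in edgeR 4.0.16 (R 4.3.3), and day 8 was compared with day 4 by the quasi-likelihood test in a model of all 9 samples, with Benjamini-Hochberg adjustment over 13154 genes. Genes past an adjusted p of 0.05 and 2-fold were called. FPKM was used for levels. The model was tested on simulated counts of 12921 genes, where all 200 genes changed 3-fold were recovered with 0 false calls. The changed genes were drawn from those with higher counts, and the counts followed the distribution that the model assumes. Calls that rest on few counts were therefore not covered. Of the tests the study names, NOIseq and PoissonDis were not used. Alternatives were DESeq2 1.42.0, limma 3.58.1 on log2(FPKM + 1) and log2(FPKM + 0.1), the edgeR exact test (which the study's methods also describe) and glmTreat, other scalings, filters and thresholds, a replicate block, and leaving out each sample.

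Named genes were the 15 largest called changes in each direction (average log2 CPM 1 or more, no overlap between the groups), up to 4 such members per list and direction, the most abundant member of each list, the TRP channels and the adipocyte markers. Of 296 genes named, 229 met this rule and the other 67 were chosen after their values were seen. The gene lists and members were chosen with earlier results of these data known. The gene set of the rule includes 2 genes that are not reported here. Shared sequence was computed from 50-base stretches of GENCODE transcripts, and antisense overlap from the exon positions of the GENCODE annotation. Of the tested genes, 10416 were matched to promoters of RefSeq (GRCm38.p6) by gene ID.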

Additional observations from a re-analysis of the deposited data

How the results depend on the processing

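The number of genes called higher and lower (558 and 370) moved by more than 1.5 times under 4 of the alternatives. limma on log2(FPKM + 1) called 224 and 136, and glmTreat, which tests against the 2-fold limit itself, called 248 and 129. The lower genes were 205 with at least 10 counts in each of the 6 samples and 221 at an adjusted p of 0.001. Leaving out a sample gave between 548 and 589 higher and between 345 and 394 lower genes. No gene called in one direction was called in the other under any alternative. The settings given beside single genes are not all of those that removed a call, and limma and glmTreat removed further ones.

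The log2 fold change of 8 genes that were not called changed sign. For Ldhb it was 0.0038 with RLE factors and with DESeq2. For Mdm2 it was -0.0264 with library size alone and -0.0286 and -0.0287 with limma at the pseudocounts of 1 and 0.1. For Trpm3 it was -0.0222 with library size alone. When each sample was left out in turn, the values ranged from -0.053 to 0.0188 for Ldhb, -0.212 to 0.342 for Trpm3, -0.072 to 0.0144 for Arntl, -0.0158 to 0.121 for Acsl1, -0.0646 to 0.0019 for Actb, -0.0787 to 0.156 for Cidec and -0.39 to 0.0459 for Junb. The cause was not tested.

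Same-numbered samples of day 4 and day 8 showed no shared deviation (correlations 0.07, -0.03 and -0.01). Differently numbered ones had correlations between -0.05 and 0.06. The main model did not pair the samples by number. Whether same-numbered samples came from one culture cannot be told from these values. With a replicate block 556 genes were called higher and 367 lower, of which 553 and 364 were also called without it. Replicates differed by more than sampling noise, and the depth limits genes below about 0.152 CPM.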
